A study of Saccharomyces cerevisiae with 29 samples.

Results

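The regions described here are windows divergent from promoters in the genome of budding yeast (Saccharomyces cerevisiae). Most begin just inside a gene and run upstream of it on the opposite strand, so that they collect RNA made away from the gene. The deposited table holds 3922 of these windows among 20318 rows, and 1946 were kept because their mean over the 17 RNA libraries was at least 10 scaled reads, a scaled read being a read count divided by the library's size factor. Of these members, 782 had the full length of 0.591 kb, and the other 1164 were shorter, from 40 to 589 bp with a median of 401.5 bp. The members nearest the limit were the windows of YMR182W-A and SFG1, each with a mean of 10.02, and the nearest one outside it was the window of GPM1, with a mean of 9.9998.

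Most yeast promoters lie in a stretch of nucleosome-free DNA from which RNA polymerase II can start in both directions. The RNA made away from the gene is often ended early by the Nrd1-Nab3-Sen1 termination complex and degraded in the nucleus by the exosome, whose nuclear catalytic subunit is Rrp6. Divergent RNA that escapes to the cytoplasm can be degraded there from its 5′ end by the exonuclease Xrn1, and catalogued RNA classes were defined by the factor whose loss reveals them: cryptic unstable transcripts, or CUTs, by loss of nuclear exosome function and Xrn1-sensitive unstable transcripts, or XUTs, by loss of Xrn1.

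The study measured strand-specific total RNA after removal of ribosomal RNA, to compare wild-type cells with mutants of the Mre11-Rad50-Xrs2 complex, which binds broken DNA ends, and of RNA decay. All strains were MATa and GAL, with the alleles ade2-1, trp1-1, can1-100 and his3-11,15, further auxotrophic mutations of leu2 and ura3, and RAD5. The groups held in G1 with alpha factor (5 µg per ml, 170 min, 25 °C, 2% glucose) were wild type with 4 libraries, rad50Δ (rad50::KAN with URA3::GPD-TK7) with 2, mre11Δ (mre11::HIS) with 2, mre11-H125N, a change in the nuclease site of Mre11 (mre11::mre11-H125N), with 2, ku70Δ (ku70::HIS) with 1, rrp6Δ (rrp6::TRP with URA3::GPD-TK7) with 2 and xrn1Δ (xrn1::ADE2) with 2. The last group, with 2 libraries, was wild type released from G1 into S phase with 0.033% methyl methanesulfonate (MMS), a DNA-alkylating agent, for 60 min, so that the treatment and the cell-cycle phase cannot be told apart. Nothing in the labels says that the libraries of a group came from separate cultures, and the p-values below measure only the spread between these libraries.

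The libraries held between 7419447 whole reads in coding rows (mre11Δ, library 1) and 32613640 (mre11-H125N, library 1) among the 16 whose reads could be recovered, and 1 read was worth between 0.337 and 2.43 scaled reads. The deleted genes checked the labels: RAD50 stood at 0 and 2.58 scaled reads in rad50Δ, MRE11 at 0 in both mre11Δ libraries, RRP6 at 1.73 and 1.05 in rrp6Δ, XRN1 at 9.84 and 15.8 in xrn1Δ and YKU70 at 2.99 in ku70Δ. In wild type, rad50Δ and mre11Δ the library numbered 1 stood apart in cell-cycle state, with 40 G1/S genes on average 1.46, 1.27 and 2.49 above the wild-type mean on the log2 scale, against -0.43, -0.42 and -0.61 in the other wild-type libraries. In 32 pheromone-response genes the same 3 libraries were at -0.93, -0.77 and -1.77.

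The windows fall into 4 kinds by what else they cover. A gene whose promoter the window leaves could be assigned by position to 1742 of the 1946, and 1550 windows begin 85 to 95 bases inside that gene. A full window runs on to its end, while 982 of the 1164 shorter ones stop 11 bp before the start codon of a neighbouring gene that points the same way, and they therefore cover that neighbour's 5′ leader. In all, 492 of the 782 full windows shared no base on their own strand with any gene, transcript or structural RNA row, and 290 did. Of the shorter windows, 1065 shared such a row and 99 did not. No member shared a base with a CUT, XUT or stable unannotated transcript (SUT) row on its strand, nor did any other of the 3922 windows. This concerns the positions of the rows and does not say which RNA the windows hold. On their own strand, 36 members overlapped the next window, and 90 began 11 bp past the end of a reading frame.

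A pair of windows at the URA3 locus went against the strain labels and is set apart from the results. The full window upstream of URA3 (chr5:115667-116257, minus strand) held 1877, 1429, 1628 and 1602 scaled reads in wild type, 3891 and 3426 in rad50Δ, 1568 and 1919 in xrn1Δ and 5814 and 4108 with MMS. It held 412 and 350 in rrp6Δ, and between 4.27 and 10.2 in mre11Δ, mre11-H125N and ku70Δ. The window antisense to URA3 (chr5:116711-117173, minus strand) showed the same split, with 2735 to 3204 in wild type and 2.43 and 4.08 in mre11Δ. The labels give the URA3::GPD-TK7 cassette to rad50Δ and rrp6Δ alone, whereas both windows were high in wild type and xrn1Δ too. What stands at this locus in each strain and the effect of each mutation cannot be told apart here, and these were 2 of the 3 most strongly lowered windows by the naming rule in rrp6Δ, mre11Δ and ku70Δ and both of those named in mre11-H125N. The XRN1 window (chr7:180025-180615, plus strand) lies beside the ADE2 replacement in xrn1Δ, where it held 110 and 123 scaled reads against 3.41 to 5.57 in wild type, and the same limit applies to it.

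In wild type the 492 full windows without a gene row held few reads. Their median was 9.75, 11.9, 14.6 and 12.8 scaled reads in the 4 libraries, and their sum was between 0.0583% and 0.0902% of the sum over coding rows. Per base, the median window stood at 2.38%, 2.53%, 3.38% and 3.09% of the level of the gene whose promoter it left, over 432 windows whose gene was coding and measured, and 12 to 15 windows exceeded their gene. Full windows with a gene row had medians of 40.4 to 44.8 scaled reads, and shorter windows with a gene row had medians of 66.5 to 81.3. The highest member of all (chr5:441890-442319, plus strand) covers the start of SCR1, the RNA of the signal recognition particle, and held 1290280 scaled reads in wild-type library 1. That window ranged from 8162 in xrn1Δ library 2 to 1491740 in mre11Δ library 2 and differed between libraries of one group, with 24441 and 577886 in mre11-H125N and 85457 and 645724 in rrp6Δ, as did the SCR1 row itself.

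Some of the highest windows without a shared row lay next to genes whose transcript row has the same ends as the open reading frame, as 704 of 5798 transcript rows do. The window with the highest wild-type signal per base (chr6:76158-76615, plus strand) begins 11 bp past the end of HAC1, the transcription factor of the unfolded protein response, and held 4247, 5035, 5657 and 8616 scaled reads in wild type. The RPA14 window (chr4:769030-769620, minus strand), beside a subunit gene of RNA polymerase I, ends 30 bp before CPR1, a cyclophilin, and held 1903, 2149, 1922 and 2331. Another abundant window (chr2:351504-351990, plus strand) held 1134 in wild-type library 1 and 2877 to 3486 in the other three. A further count was therefore made of the 405 full windows that lie over 200 bp from any open reading frame on their strand, and its values stand beside the results.

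**Figure D1:**
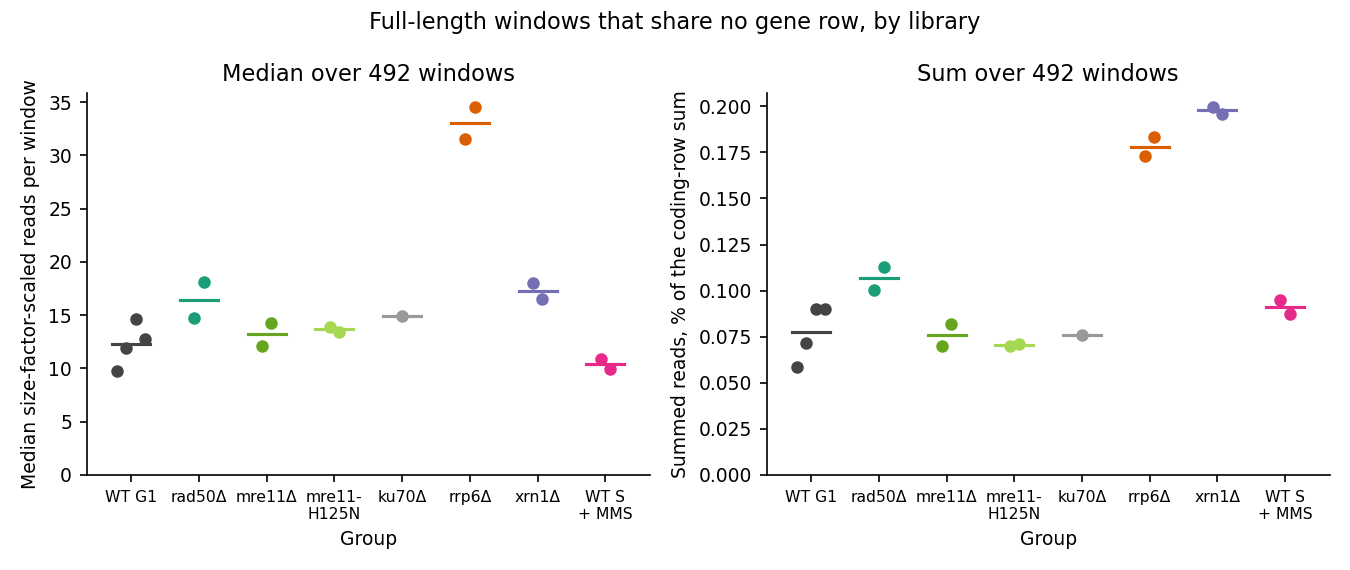
Full windows without a gene row in every library: the median over 492 windows in scaled reads (left) and their sum as a percentage of the sum over coding rows (right), with a point per library and a line at the group mean. The medians of rrp6Δ (31.5 and 34.6) lie above those of all other libraries, while for the sum xrn1Δ (0.20% and 0.196%) stands slightly above rrp6Δ (0.173% and 0.184%) as a share of a lower coding sum. The sums include the URA3 window, which differs strongly between strains.

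Among the 8 comparisons, that of rrp6Δ with wild type gave the most raised full windows and the highest median change. The rrp6Δ libraries helped some of these windows to reach the mean of 10. That mean was also taken in the groups not compared. Full windows without a gene row then held 163 higher of 385 in rrp6Δ and 163 of 477 in xrn1Δ. Their median log2 changes were 1.09 and 0.38. Of the 55 with a mean of at least 50, 27 were higher in rrp6Δ and 35 in xrn1Δ (medians 0.87 and 1.24). The 492 full windows without a gene row had a median of 31.5 and 34.6 scaled reads in the 2 rrp6Δ libraries, above the 9.75 to 14.6 of wild type, and the groups did not overlap. Their sum came to 0.173% and 0.184% of the coding sum, and the median window reached 6.86% and 7.62% of its gene's level per base. In such bulk RNA, fewer cells making an RNA and less of it per cell cannot be told apart.

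By limma with Benjamini-Hochberg adjustment over 16559 rows, 317 of the 782 full windows were higher in rrp6Δ than in wild type and 11 were lower, while 110 of the 1164 shorter ones were higher and 39 lower. Over all rows tested, 21.3% were higher and 6.95% lower, 28.3% in all. The full windows without a gene row held 236 higher and 5 lower of 492, which is 48.0% and 1.02%, with a median log2 change of 1.28 against 0.11 over all rows. Of the 236, 126 rose at least 4-fold and 37 at least 8-fold. Shorter windows with a gene row held 82 higher and 38 lower of 1065, 7.70% and 3.57%, both below the share over all rows, with a median of 0.10. For scale, 650 of 760 CUT rows were higher, with a median of 2.63. Among the 405 windows far from same-strand reading frames, 210 were higher and 5 lower.

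A window that reaches the mean of 10 only through the rrp6Δ libraries had to differ, and 385 of the 492 reached it in the libraries outside this comparison. Of those 385, 163 were higher and 5 lower, a count added after the data were seen. Leaving out rrp6Δ library 1 or 2 took the 236 to 132 and 117 and all window calls from 477 to 234 and 233. Against wild-type libraries 3 and 4 alone, also added after the data were seen, the 236 became 181, with a median log2 change of 0.91. Against libraries 1 and 2 alone they became 276, with a median of 1.55. Over all windows the split was 427 higher and 50 lower, and with edgeR or DESeq2 on whole reads it was 424 and 124 or 414 and 128. The median of the 492 windows was 0.96 with edgeR and 0.995 with DESeq2. TMM scaling moved the median of all rows from 0.11 to -0.02 and that of the full windows without a gene row from 1.28 to 1.15.

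The ALD5 window (chr5:303530-304120, minus strand), at a mitochondrial aldehyde dehydrogenase gene, held 1.39, 1.71, 1.63 and 3.66 scaled reads in wild type and 60.5 and 70.7 in rrp6Δ. The other groups held between 0 and 9.96, so this window reached the mean of 10 only through rrp6Δ. The naming rule also asked for libraries that do not overlap. A rise in rrp6Δ was thus fixed by the selection of this window. Its log2 change was 4.48 ± 0.57 (SE, limma adjusted p = 6.7e-05), while ALD5 itself fell by 1.23 (limma adjusted p = 7.4e-06).

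The VMA22 window (chr8:220226-220816, minus strand), at a gene for assembly of the vacuolar proton pump, held 8.36, 1.71, 5.69 and 8.22 scaled reads in wild type and 112 and 134 in rrp6Δ. Its log2 change was 4.30 ± 0.55 (SE, limma adjusted p = 6.7e-05), and xrn1Δ stood within the wild-type range at 5.10 and 5.05. The RNH203 window (chr12:448224-448814, plus strand), at a subunit gene of ribonuclease H2, held 8.36, 0, 1.63 and 6.40 in wild type and 72.6 and 100.0 in rrp6Δ. It changed by 4.55 ± 1.02 (SE, limma adjusted p = 0.0046), a call lost without rrp6Δ library 2 (limma adjusted p = 0.053). VMA22 and RNH203 themselves changed by 0.28 and -0.19 and passed no test (limma adjusted p = 0.13 and 0.40). For both windows the rrp6Δ libraries alone were enough to reach the limit on the mean over all libraries. The naming rule also asked for libraries that do not overlap. The selection of both windows thus favoured a rise in rrp6Δ, and their p-values do not allow for it.

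The third window lowered by the naming rule, beside the pair at URA3, was that of BPH1 (chr3:179024-179614, minus strand). It held 26.5, 18.8, 14.6 and 18.3 scaled reads in wild type, 6.91 and 3.67 in rrp6Δ and 2.92 and 3.03 in xrn1Δ. Its log2 change in rrp6Δ was -1.73 ± 0.41 (SE, limma adjusted p = 0.0061), and without rrp6Δ library 2 the call was lost (limma adjusted p = 0.10).

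Of the 492 windows, 243 reach far enough to run antisense into another gene's reading frame, and 134 of these were higher in rrp6Δ, with a median log2 change of 1.54. Of the 249 that reach no other reading frame, 102 were higher, with a median of 1.09.

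**Figure D2:**
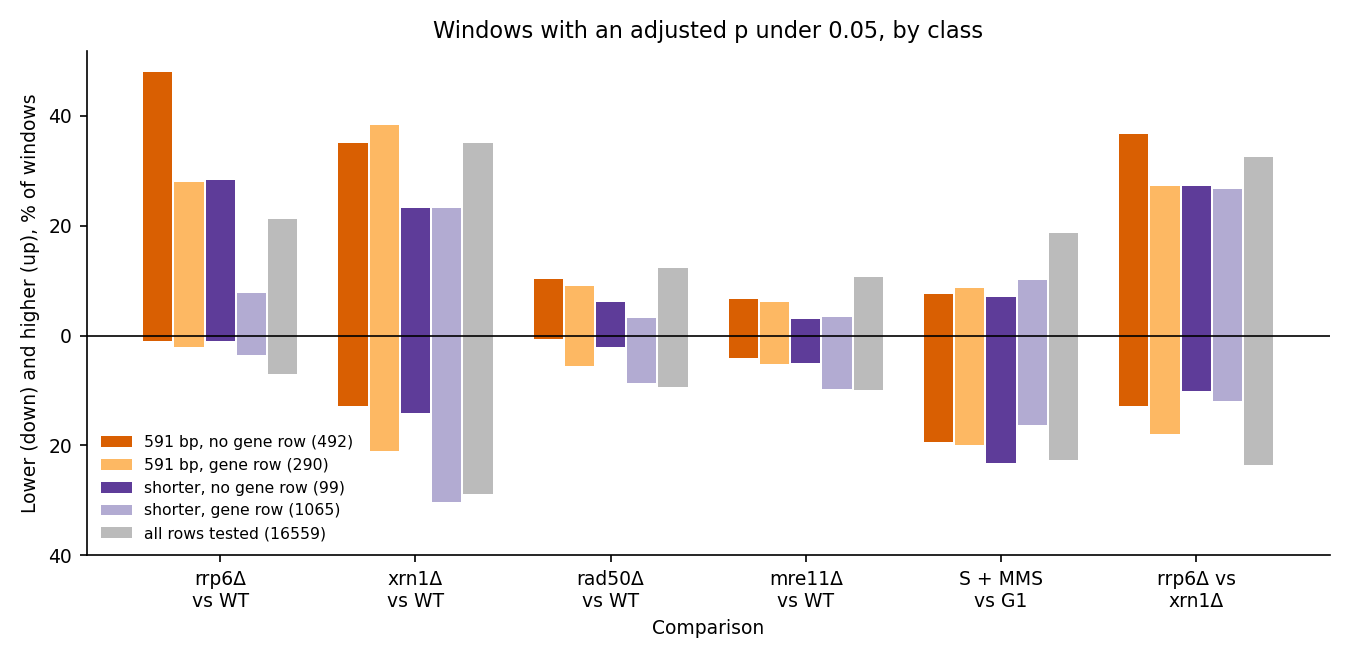
Share of windows with an adjusted p under 0.05 in each comparison, higher above the line and lower below it, for the 4 kinds of window and for all 16559 rows tested. In rrp6Δ 48.0% of the full windows without a gene row were higher, against 7.70% of the shorter windows with a gene row and 21.3% of all rows.

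Loss of Xrn1 moved the windows in both directions. The full windows without a gene row had a median of 18.0 and 16.5 scaled reads in xrn1Δ, above the wild-type range, and their sum was 0.20% and 0.196% of the coding sum. That share was above the one in rrp6Δ although the sum itself was smaller, 21291 and 21219 scaled reads in xrn1Δ against 28022 and 30997 in rrp6Δ. The coding sum was lower in xrn1Δ, at 10651941 and 10839549 scaled reads against 16217515 and 16888012 in rrp6Δ and 18403289 to 21587864 in wild type. Per base the median window stood at 3.54% and 3.34% of its gene, against up to 3.38% in wild type.

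Of the 782 full windows, 284 were higher and 124 lower in xrn1Δ, and of the 1164 shorter ones 270 were higher and 336 lower, where 35.1% of all rows were higher and 28.9% lower. Among the 492 without a gene row, 173 were higher and 63 lower, 35.2% and 12.8%, with a median log2 change of 0.42 against 0.13 over all rows. The higher share thus lay at that of all rows, and the lower share below it. Without xrn1Δ library 1 or 2 the 63 became 34 and 30. Of the 173, 60 rose at least 4-fold and 8 at least 8-fold. Shorter windows with a gene row held 247 higher and 322 lower of 1065, with a median of -0.06.

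The windows that reach into another gene differed from those that do not. Of the 249 that reach no other reading frame, 115 were higher and 24 lower, with a median log2 change of 0.94. Of the 243 that run antisense into a neighbour, 58 were higher and 39 lower, with a median of 0.05. These are counts of 2 kinds of window, and the difference between them was not tested.

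The BST1 window (chr6:87144-87734, plus strand), at a gene for remodelling of membrane anchors of proteins, rose most. It held 6.97, 11.9, 13.0 and 17.4 scaled reads in wild type and 471 and 486 in xrn1Δ, a log2 change of 5.23 ± 0.39 (SE, limma adjusted p = 1.4e-07). This window was also above wild type in rrp6Δ, at 110 and 126, in rad50Δ, at 82.9 and 128, in mre11Δ, at 29.2 and 67.4, and in ku70Δ, at 34.9, whereas mre11-H125N stood within the wild-type range at 15.5 and 14.6 and MMS held 6.51 and 2.83. BST1 itself changed by 0.92 in xrn1Δ (limma adjusted p = 0.0017).

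A window antisense to RPS29A, a ribosomal protein gene (chr12:898151-898741, minus strand), held 2.79, 1.71, 7.32 and 4.57 scaled reads in wild type and 142 and 122 in xrn1Δ. Its log2 change was 4.83 ± 0.49 (SE, limma adjusted p = 2.1e-06), and rrp6Δ, at 23.3 and 15.7, lay between them. The xrn1Δ libraries alone were enough for this window to reach the limit on the mean over all libraries. The naming rule also asked for libraries that do not overlap. The selection of this window thus favoured a rise in xrn1Δ, and its p-value does not allow for it.

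Other windows fell in xrn1Δ. The PPN1 window (chr4:1362383-1362973, minus strand), at a polyphosphatase gene, held 68.3, 32.4, 61.8 and 46.6 scaled reads in wild type and 2.55 and 2.02 in xrn1Δ. All other groups lay between 24.5 and 109, so xrn1Δ alone was low, with a log2 change of -3.97 ± 0.34 (SE, limma adjusted p = 4.8e-07). PPN1 itself changed by 0.20 and passed no test (limma adjusted p = 0.12). The RML2 window (chr5:60761-61351, plus strand), at a gene for a mitochondrial ribosomal protein, held 768, 616, 789 and 1261 in wild type and 77.6 and 77.1 in xrn1Δ, and changed by -3.40 ± 0.24 (SE, limma adjusted p = 1.1e-07).

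The TSL1 window (chr13:70124-70714, minus strand), at a gene of trehalose synthesis, held 40.4, 22.2, 28.5 and 20.1 scaled reads in wild type and 2.19 and 1.35 in xrn1Δ, a log2 change of -3.35 ± 0.41 (SE, limma adjusted p = 1.1e-05). TSL1 itself rose in the same libraries, by 2.36 on the log2 scale (limma adjusted p = 4.3e-05). This window ends 36 bp before CUE4, whose coding row fell from between 166 and 301 scaled reads in wild type to 55.4 and 46.8.

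The decay mutants were also set directly against each other, with the spread still estimated over all libraries. Of the full windows, 260 were higher and 115 lower in rrp6Δ than in xrn1Δ, and of the shorter ones 311 and 136, with 32.5% of all rows higher and 23.5% lower, 56.0% together. Full windows without a gene row held 181 higher and 63 lower of 492, 36.8% and 12.8%, with a median log2 difference of 0.83. Among the 55 of them with a mean of at least 50 scaled reads the order turned, with 13 higher and 16 lower and a median of -0.14. The windows that run antisense into a neighbour split 119 to 19 towards rrp6Δ, with a median of 1.43, while those that reach no other reading frame split 62 to 44, with a median of 0.20. With the mean of 10 taken in the other groups, 114 of 359 were higher and 52 lower. Over all windows the split was 571 to 251, and with edgeR on whole reads 600 to 421.

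The PHO87 window (chr3:197099-197689, plus strand), at a phosphate transporter gene, held 122 and 99 scaled reads in rrp6Δ and 0.364 and 0 in xrn1Δ, where 0.364 is a single read. Wild type held 5.57, 5.12, 7.32 and 3.66, between the mutants, and the log2 difference between rrp6Δ and xrn1Δ was 6.57 ± 0.79 (SE, limma adjusted p = 1.5e-05). It depends on the pseudocount of 1 because xrn1Δ is near 0. The rrp6Δ libraries alone were enough for this window to reach the limit on the mean over all libraries. The naming rule also asked for libraries that do not overlap. The selection of this window thus favoured a higher value in rrp6Δ, and its p-value does not allow for it.

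The TIF5 window (chr16:648206-648796, minus strand), at the gene of translation initiation factor eIF5, held 95.9 and 104 scaled reads in rrp6Δ, 0.364 and 3.03 in xrn1Δ and 15.3, 6.82, 5.69 and 15.5 in wild type. It rose against wild type in rrp6Δ by 3.21 ± 0.57 (SE, limma adjusted p = 0.00086) and fell by 2.22 in xrn1Δ (SE 0.57, limma adjusted p = 0.0039). For the TIF5 window too, the rrp6Δ libraries alone were enough to reach the limit on the mean over all libraries. Its selection likewise favoured a higher value in rrp6Δ. A window antisense to OPI3, a phospholipid synthesis gene (chr10:572332-572922, plus strand), held 56.2 and 92.7 in rrp6Δ and 1.46 and 1.01 in xrn1Δ. It differed by 5.04 ± 0.61 between them (SE, limma adjusted p = 1.5e-05), and wild type lay between them at 3.41 to 15.3.

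**Figure D3:**
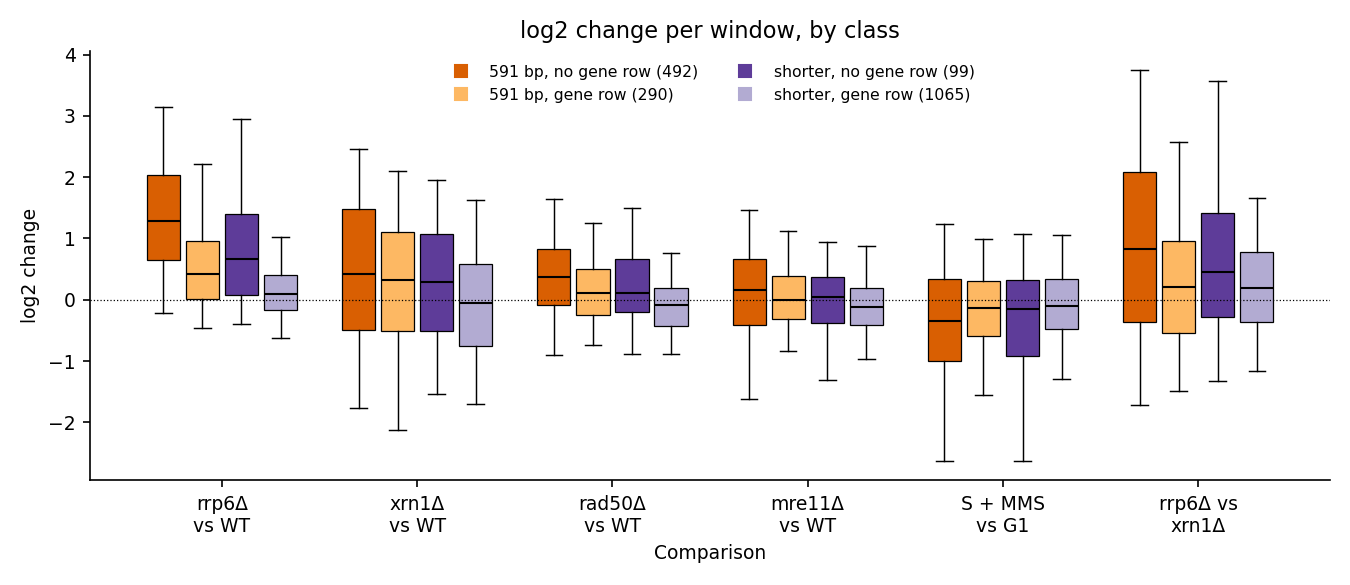
log2 change of each member window by kind, with the median as a line, the quartiles as a box and whiskers to the 5th and 95th percentiles. In rrp6Δ the median of the full windows without a gene row was 1.28 and that of the shorter windows with a gene row was 0.10. In rad50Δ the same medians were 0.36 and -0.09, and with MMS -0.35 and -0.10.

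Loss of Rad50 or Mre11 changed far fewer windows. In rad50Δ the median full window without a gene row stood at 14.7 and 18.1 scaled reads, just above the wild-type maximum of 14.6, and in mre11Δ at 12.2 and 14.3, within the wild-type range. Of all 1946 windows, 117 were higher and 112 lower in rad50Δ, where 12.4% of all rows were higher and 9.32% lower. In mre11Δ 91 were higher and 144 lower, where 10.7% and 9.84% of all rows were.

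By kind of window, full ones in rad50Δ held 77 higher and 19 lower of 782, and shorter ones 40 higher and 93 lower of 1164. Those without a gene row held 51 higher and 3 lower of 492, 10.4% and 0.61%, with a median log2 change of 0.36 against 0.05 over all rows. Their higher share did not exceed that of all rows. In mre11Δ the same 492 held 33 higher and 20 lower, with a median of 0.16, and the shorter windows with a gene row held 37 higher and 104 lower of 1065.

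Both counts rest on few libraries. Without rad50Δ library 1 or 2 the 51 became 18 and 8 and all calls fell from 229 to 59 and 33, and without mre11Δ library 1 or 2 the 33 higher and 20 lower became 12 and 16 or 14 and 26, and 20 and 16 without either xrn1Δ library. Against wild-type libraries 3 and 4 alone, an alternative added after the data were seen, the same windows held 46 higher and 29 lower in rad50Δ and 37 higher and 55 lower in mre11Δ. With trimmed-mean (TMM) scaling the split over all windows in rad50Δ turned to 100 higher and 153 lower, and with DESeq2 to 118 and 196. The part of cell-cycle state was not tested in these counts. In G1/S genes it separated the number 1 libraries, and the number 2 libraries of both deletions also lay above most of wild type.

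The YLR413W window (chr12:950658-951248, minus strand) was among the windows that rose most in rad50Δ, after that of BST1. It held 6.97, 3.41, 4.07 and 1.83 scaled reads in wild type, 57.1 and 23.3 in rad50Δ and 21.9 and 20.4 in mre11Δ. Its log2 change was 2.99 ± 0.49 in rad50Δ and 2.22 ± 0.49 in mre11Δ (SE, limma adjusted p = 0.0014 and 0.0077). Both deletions are set against the same wild-type libraries. In the mre11-H125N libraries it held 4.82 and 7.92.

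The BST1 window changed by 3.03 ± 0.39 in rad50Δ (SE, limma adjusted p = 0.00027) and by 1.83 ± 0.39 in mre11Δ (SE, limma adjusted p = 0.0067). A window antisense to BFA1, a gene of the mitotic exit checkpoint (chr10:533825-534415, minus strand), held 2.79, 0, 4.07 and 3.66 scaled reads in wild type and 14.7 and 20.7 in rad50Δ. Its call (2.59 ± 0.63, SE, limma adjusted p = 0.013) was lost without either rad50Δ library (limma adjusted p = 0.058 and 0.12).

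Windows lowered in rad50Δ included one antisense to BNA1, a gene of NAD synthesis (chr10:471172-471762, plus strand). It held 16.7, 10.2, 52.9 and 45.7 scaled reads in wild type, 3.69 and 5.17 in rad50Δ, 4.86 and 8.17 in mre11Δ and 4.34 and 4.25 with MMS. Wild type itself spread widely, yet all 3 groups lay below it, and the log2 change in rad50Δ was -2.31 ± 0.53 (SE, limma adjusted p = 0.010). The calls of the other lowered windows by the rule, that of DFG5, a cell-wall protein gene, at -2.03 and one antisense to HEM2, a heme synthesis gene, at -0.88 (limma adjusted p = 0.043 and 0.037), and of the BNA1 one were each lost in at least 1 alternative.

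In mre11Δ the VPS8 window (chr1:143207-143797, minus strand), at a gene of vacuolar protein sorting, held 46.2 and 30.6 scaled reads against 4.18, 6.82, 7.32 and 4.57 in wild type. Its log2 change was 2.55 ± 0.35 (SE, limma adjusted p = 0.00043), and it also rose in rad50Δ, at 20.3 and 15.5, by 1.51 ± 0.35 (SE, limma adjusted p = 0.010). VPS8 itself rose by 1.22 in mre11Δ (limma adjusted p = 0.00015). The NDJ1 window (chr15:117365-117955, plus strand), at a gene for meiotic telomeres, held 175 and 178 in mre11Δ and 57.1, 49.5, 20.3 and 11.9 in wild type, a change of 2.57 ± 0.50 (SE, limma adjusted p = 0.0040) that did not pass when the 2 groups were fitted alone (limma adjusted p = 0.061).

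The YPR146C window (chr16:825588-826178, plus strand) fell in mre11Δ. It held 12.5, 17.1, 24.4 and 29.2 scaled reads in wild type and 4.86 and 2.04 in mre11Δ, where 1 read of these shallow libraries is worth 2.43 and 2.04. The log2 change was -2.30 ± 0.39 (SE, limma adjusted p = 0.0016), and rad50Δ, at 11.1 and 19.4, lay at or near the wild-type range. In rrp6Δ the same window held 105 and 113. The YAL063C-A window (chr1:22595-23185, plus strand) rose to 26.7 and 30.6 from 0 to 10.1, a call lost without either mre11Δ library. It lies near a chromosome end, where sequences shared between copies can make counts uncertain.

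Few windows were called in the nuclease-site mutant and in ku70Δ. In mre11-H125N 2 windows were higher and 6 lower of 1946, against 0.96% and 0.38% of all rows (1.34% in either direction), and 261 had an unadjusted limma p under 0.05. The median full window without a gene row stood at 13.9 and 13.4 scaled reads, within the wild-type range. In ku70Δ, with 1 library that is assumed to vary like the other groups, 2 were higher and 7 lower, against 0.326% and 0.344% (0.67% in either direction), and the median window stood at 14.9, just above the wild-type range. The median log2 change of the 492 windows was 0.34 in ku70Δ, against 0.03 over all rows, and 0.18 in mre11-H125N. The URA3 pair was among the lower windows in both mutants. The YOR152C window (chr15:618199-618789, plus strand) held 0.996 in ku70Δ and 9.75, 10.2, 8.13 and 7.31 in wild type (limma adjusted p = 0.037), a call lost without any 1 of 8 libraries, among them wild-type libraries 1 and 2.

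These counts depended on the wild-type libraries used. With wild-type libraries 1 and 2 alone, an added alternative, 121 windows were called in mre11-H125N and 74 in ku70Δ. Leaving out 1 library gave between 2 and 75 in mre11-H125N and between 2 and 22 in ku70Δ. Without wild-type library 1, 2 or 3 the count in mre11-H125N was 4, 13 or 26, without its own library 1 or 2 it was 2 or 75, and without any 1 library of rad50Δ or xrn1Δ it was 3. In ku70Δ it was 4, 2, 21 or 4 without wild-type library 1, 2, 3 or 4, 2 without any 1 library of rad50Δ or xrn1Δ, 5 without one of mre11Δ, 22 without one of mre11-H125N and 4 without one of rrp6Δ. DESeq2 on whole reads called 84 windows in mre11-H125N and edgeR 8, and with size factors from coding rows the split there was 1 higher and 6 lower.

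After release into S phase with MMS more windows were called lower than higher, and both shares lay below those of all rows. The median full window without a gene row stood at 10.9 and 9.92 scaled reads, within the wild-type range, and 34 and 12 of the 492 were at 0, against 0 to 10 in wild type. Of all windows 177 were higher and 350 lower, 9.10% and 18.0%, where 18.6% of all rows were higher and 22.6% lower, 41.3% in either direction. Full windows held 62 higher and 153 lower of 782, and shorter ones 115 higher and 197 lower of 1164. Those without a gene row held 37 higher and 95 lower of 492, with a median log2 change of -0.35. Their shares, 7.52% and 19.3%, were also below those of all rows. Against wild-type libraries 1 and 2 alone, an added alternative, the 492 held 47 higher and 49 lower, and against libraries 3 and 4 alone 34 and 139. Without MMS library 1 the 95 became 63 and all calls went from 527 to 291.

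The NTE1 window (chr13:158168-158749, plus strand) ends 11 bp before HUG1, an inhibitor of ribonucleotide reductase that is induced by DNA damage. It held 9.75, 8.53, 8.95 and 9.14 scaled reads in wild type in G1 and 258 and 142 with MMS, a log2 change of 4.25 ± 0.35 (SE, limma adjusted p = 1.3e-06). It was also above wild type in rad50Δ (38.7 and 27.1), mre11Δ (17 and 30.6) and ku70Δ (40.9) and below it in xrn1Δ (3.64 and 2.02). The HUG1 coding row was likewise high with MMS (567 and 333, against 17.4 to 25.1 in wild type) and in rad50Δ (79.2 and 80.1) and low in xrn1Δ (2.55 and 3.37). Leader RNA of HUG1 and divergent RNA of NTE1 cannot be told apart in this window.

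The PRP39 window (chr13:181086-181564, minus strand) ends 11 bp before PRM6, a membrane protein gene induced by mating pheromone, and PRP39 encodes a splicing factor. It held 46.0, 433, 425 and 485 scaled reads in wild type in G1, 71.9 and 256 in rad50Δ, 34.0 and 302 in mre11Δ and 13.0 and 9.92 with MMS. Library 1 was far below the others of its group in wild type, rad50Δ and mre11Δ. The PRM6 coding row showed the same split, with 407 in wild-type library 1 and 2642 to 3374 in the other three. The log2 change with MMS was -4.36 ± 0.99 (SE, limma adjusted p = 0.0044). On the other strand the PRM6 window, which ends 11 bp before PRP39, held 9.75, 0, 1.63 and 3.66 in wild type and 71.6 and 77.9 with MMS, a change of 4.48 ± 0.77 (SE, limma adjusted p = 0.00051).

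The GPA1 window (chr8:114829-115419, plus strand), at the G protein gene of the mating pathway, held 11.1, 20.5, 45.5 and 30.2 scaled reads in wild type and 0 in both MMS libraries (limma adjusted p = 5.7e-06). GPA1 itself fell by 3.31 on the log2 scale (limma adjusted p = 5.5e-08). The RPL41A window (chr4:130394-130984, plus strand), at a ribosomal protein gene, held 68.3, 20.5, 303 and 180 in wild type and 2.17 and 8.50 with MMS. Its log2 change was -4.12 ± 0.83 (SE, limma adjusted p = 0.0021), and wild type itself spread widely.

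The YDR133C window (chr4:721212-721802, plus strand) held 82.5 and 75.1 scaled reads with MMS and 6.97, 18.8, 13.8 and 11.0 in wild type, and rose by 2.62 ± 0.36 (SE, limma adjusted p = 9.1e-05). The PIM1 window (chr2:181226-181816, plus strand), at the gene of the mitochondrial Lon protease, held 49.9 and 24.1 with MMS and 9.75, 5.12, 4.88 and 5.48 in wild type. It rose by 2.34 ± 0.41 (SE, limma adjusted p = 0.00060), and PIM1 itself by 1.07 (limma adjusted p = 0.00010).

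**Figure D4:**
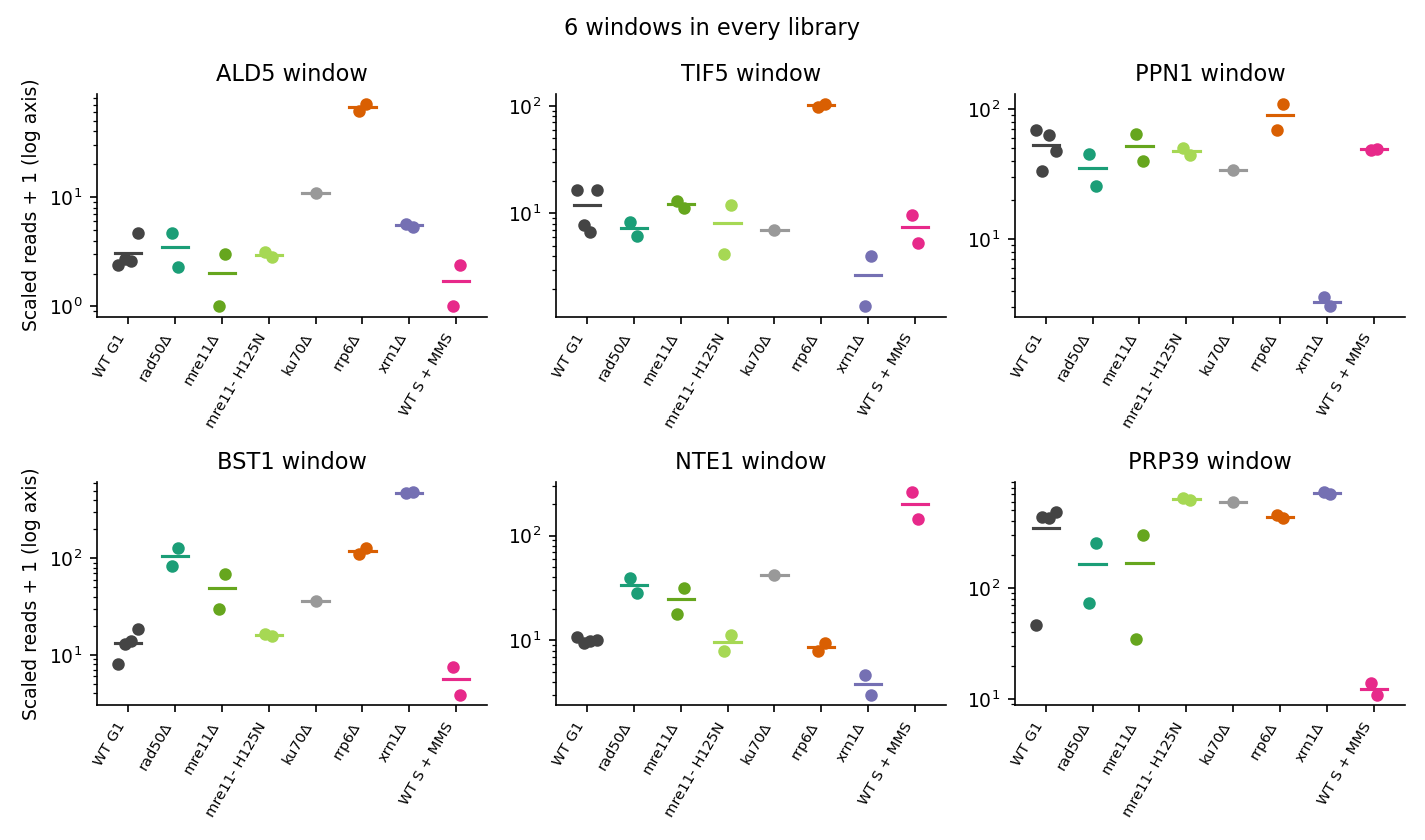
Scaled reads plus 1 of 6 windows in every library on a log axis, with a point per library and a line at the group mean. The ALD5 and TIF5 windows are highest in rrp6Δ, the PPN1 window is low in xrn1Δ alone, the BST1 window is highest in xrn1Δ, the NTE1 window is highest with MMS and the PRP39 window is lowest there.

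Windows were also grouped by the function of the promoter's gene. Of 18 at pheromone-response genes 10 were members, and in rrp6Δ 7 were higher and none lower, with a median log2 change of 1.64. Of the 10, 7 were full windows without a gene row, 6 of them higher, a kind of which 48.0% were higher with a median of 1.28. With MMS 2 of the 10 were higher and 5 lower, where 18.6% and 22.6% of all rows were. The FUS1 window, at a cell-fusion gene, held 11.1, 3.41, 17.9 and 17.4 scaled reads in wild type and 91.6 and 130 in rrp6Δ, a log2 change of 3.24 ± 0.52 (SE, limma adjusted p = 0.00038). The FIG1 window, at a gene for mating, held 16.7, 27.3, 17.9 and 20.1 in wild type and 153 and 141 in rrp6Δ, a change of 2.81 ± 0.48 (SE, limma adjusted p = 0.00071). The STE12 window, at the gene of the pathway's transcription factor, changed by 1.43 ± 0.33 (SE, limma adjusted p = 0.0050). All wild-type, rrp6Δ and xrn1Δ libraries were held in alpha factor.

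The FUS3 window, at the gene of the mating protein kinase, held 73.8, 97.2, 184 and 158 scaled reads in wild type, 254 in both rrp6Δ libraries, 565 and 618 in xrn1Δ and 26.1 and 35.4 with MMS. It passed in rrp6Δ at 1.07 ± 0.33 and with MMS at -1.95 ± 0.33 (SE, limma adjusted p = 0.027 and 0.00044). The FUS1 window rose with MMS, to 34.7 and 56.7, by 1.96 ± 0.52 (SE, limma adjusted p = 0.0083), while FUS1 itself fell by 4.46 on the log2 scale (limma adjusted p = 0.00043).

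At ribosomal protein genes 21 of 90 windows were members, and with MMS 1 was higher and 8 lower, where 18.6% and 22.6% of all rows were, with a median log2 change of -0.45 against -0.15 over all windows. In rrp6Δ 3 of the 21 were higher and 2 lower, where 21.3% and 6.95% of all rows were. At 7 DNA damage response genes 2 windows were higher and 1 lower with MMS, where 18.6% and 22.6% of all rows were. The MAG1 window ends 11 bp before DDI1, a gene that shares the promoter of this alkylated-base glycosylase, and rose by 1.82 ± 0.18 (SE, limma adjusted p = 8.8e-06).

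Other lists gave small counts, from which nothing is read beyond the counts. At 13 genes of RNA decay and termination 6 windows were higher and 5 lower in xrn1Δ, with 11 of the 13 thus called where 64.0% of all rows were, and 1 of the 6 was the window at the deleted gene. Among the others, the window of LSM7, a gene for an mRNA decay factor, ends 11 bp before ALF1 and held 51.6, 39.2, 46.4 and 78.6 scaled reads in wild type and 224 and 228 in xrn1Δ. At 25 ribosome biogenesis genes none was higher and 7 lower in xrn1Δ, where 35.1% and 28.9% of all rows were, so the lower count lay at the background. At 7 G1/S genes 2 were higher in mre11Δ and 2 with MMS, where 10.7% and 18.6% of all rows were. In xrn1Δ, with 35.1% of all rows higher and 28.9% lower, 2 were higher and 3 lower at 6 stress-induced genes. There 3 were higher at 7 genes of G2/M and daughter cells. At 4 glycolytic genes 2 were higher in rrp6Δ, where 21.3% of all rows were, and the 1 histone window was called in no comparison.

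Whether a window moved with a gene depended on what it covered. For full windows without a gene row, the Pearson correlation between the change in rrp6Δ and that of the promoter's gene was -0.07, across 432 windows that share their libraries and are not replicates. Of the 213 that were higher in rrp6Δ, 18 had a gene that was higher, 20 a gene that was lower and 175 a gene that was not called. In xrn1Δ the correlation was 0.03, in rad50Δ 0.13, in mre11Δ 0.27 and with MMS 0.10.

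The shorter windows with a gene row moved with the gene of the transcript they share bases with. The shared part need not be a leader in every case. Of the 982 shorter windows that stop 11 bp before a start codon, 48 shared no gene row. Over 1040 windows, the Pearson correlation between the change of the window and that of the gene of the shared transcript was 0.59 in rrp6Δ, 0.83 in xrn1Δ, 0.73 in rad50Δ, 0.71 in mre11Δ, 0.65 in mre11-H125N, 0.62 in ku70Δ and 0.82 with MMS. With the gene of the promoter itself, over 842 windows, it lay between -0.03 and 0.26. Each pair shares reads of the same transcript in the same libraries. Of 238 such windows that were higher in xrn1Δ, 196 had that gene higher, and of 314 that were lower, 274 had it lower. For 749 windows with under 25% of their bases in the transcript row, the median share was 10.9% and the correlation in xrn1Δ 0.81. In rrp6Δ it was 0.58 for these, and 0.42 for 87 windows with 50% or more. A share of bases does not give the share of reads, so these values cannot show a relation without shared reads.

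**Figure D5:**
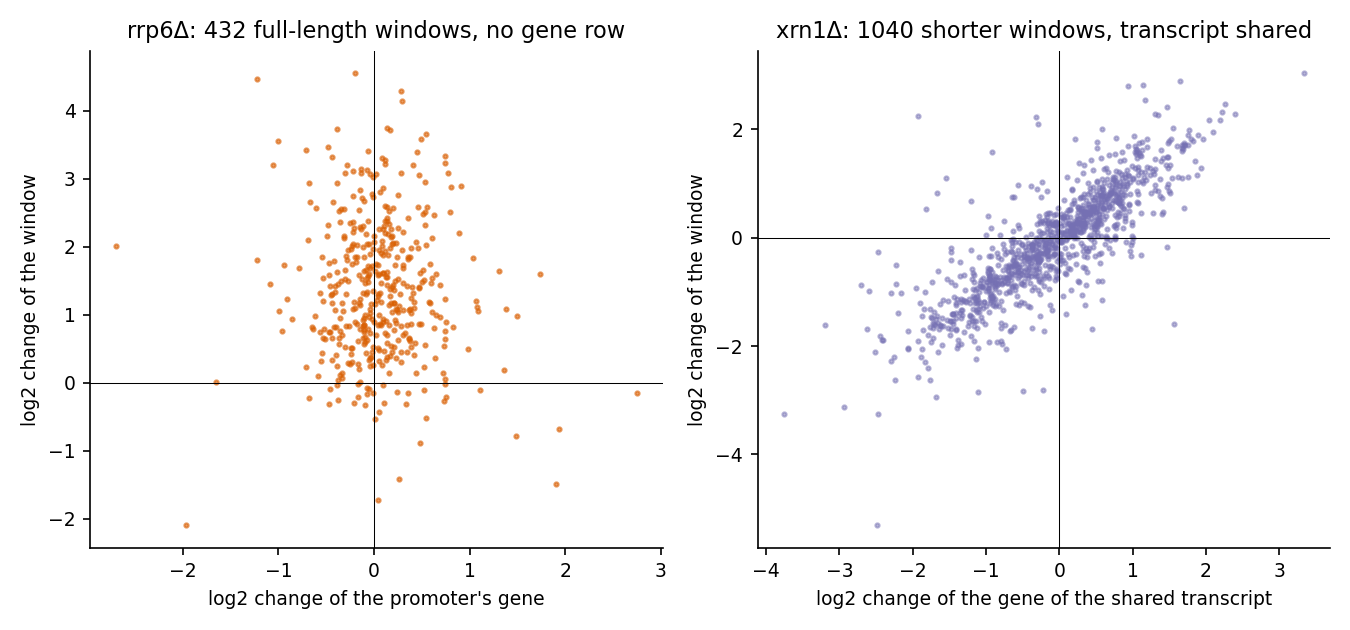
log2 change of windows against that of a gene, a point per window. Left, 432 full windows without a gene row in rrp6Δ against the gene of their promoter, with Pearson r = -0.07; right, 1040 shorter windows in xrn1Δ against the gene of the transcript they share bases with, with r = 0.83.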

How the data were processed

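The deposited table holds 17 RNA libraries and was used for windows divergent from promoters. Its values have the unit of a signal, whole reads divided by a size factor by the authors. Per the submitters' processing notes, STAR 2.5.3, SAMtools 0.1.19 and DESeq2 were used with build R64, in which all coordinates are given; the counting program and its strand setting are not given in the sources used here. Other columns of per-sample or group-mean values (33) were not used, and 12 of the 29 samples, of other assays, were not analysed.

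Each value of every library was a whole multiple of the value of 1 read (100% within 0.02 reads), so whole reads were recovered in 16 libraries; in ku70Δ the step is too near 1 to tell scaled from unscaled reads. No pair of libraries agreed within counting noise. The main test was limma 3.58.1 in R 4.3.3 on log2(value + 1), with all 17 libraries in 8 groups, over 16559 rows with a mean of at least 10, called at a Benjamini-Hochberg adjusted p under 0.05; a fold change on this scale understates that of low rows. The count tests edgeR 4.0.16 and DESeq2 1.42.0 were run on the recovered reads as alternatives, and called 548 and 542 windows in rrp6Δ against 477. Scripts were tested on simulated data.

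Window rows carry no gene name, so a gene was assigned where the window covers 40 to 140 bases of a reading frame, coding or dubious, on the other strand. The windows named were, among members sharing no gene row on their strand, the 3 higher and 3 lower in each comparison with the largest log2 change among called windows whose libraries do not overlap, and the 5 with the highest wild-type signal per base. Windows at genes of 10 functional lists were counted: ribosomal protein, ribosome biogenesis, stress, DNA damage, G1/S, histone, pheromone, G2/M, glycolysis and RNA decay. Windows named from these lists were chosen after their values were seen. The members, rules and lists were chosen with earlier results of these data known.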

Additional observations from a re-analysis of the deposited data

Results flagged for a closer look

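Of 42 sets of the 4 wild-type libraries examined, 3 held a value that stood far from the others by Dixon's criterion, where chance alone gives about 1 in 20. The PRP39 window held 46.0 scaled reads in wild-type library 1 and 425 to 485 in the other three. The PIM1 window held 9.75 in library 1 and 4.88 to 5.48 in the others. The ALD5 window held 3.66 in library 4 and 1.39 to 1.71 in the others.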

How the results depend on the processing

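Counts over all windows in the comparisons of rrp6Δ, xrn1Δ, rad50Δ, mre11Δ, mre11-H125N, ku70Δ and MMS with wild type, and of rrp6Δ with xrn1Δ, were 477, 1014, 229, 235, 8, 9, 527 and 822. Full windows without a gene row numbered 236, 173, 51 and 33 higher in the first 4, 95 lower with MMS and 181 higher in rrp6Δ than in xrn1Δ. Without the low-value filter the counts were 926 in rrp6Δ, 5 in mre11-H125N and 1316 between the decay mutants. At a mean of 50 they were 132, 587, 5 (ku70Δ), 318 (MMS) and 439, and for full windows without a gene row 27, 35, 12, 8, 16 (MMS) and 13; fewer windows were tested there. With windows sharing no gene row alone, 270, 273, 62, 61, 2, 3, 162 and 281 were called. With the 2 groups compared alone, fewer libraries gave 60 in rad50Δ, 42 in mre11Δ, 2 in mre11-H125N and 318 with MMS, and 1326 between the decay mutants (full windows 16, 4, 51 with MMS and 272). Requiring a 2-fold change left 108, 128, 4 and 323 in rad50Δ, mre11Δ, mre11-H125N and MMS. DESeq2 called 84 in mre11-H125N and 63 full windows with MMS.

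Alternatives added after the data were seen gave, with wild-type libraries 3 and 4, 380 in mre11Δ and 3 in ku70Δ, and with libraries 1 and 2, 121 in mre11-H125N, 74 in ku70Δ and 49 full windows with MMS; with the filter on other groups, 114 full windows were higher in rrp6Δ than in xrn1Δ. With library 1 left out in wild type, rad50Δ and mre11Δ at once, counts were 113, 144, 4 and 4 in rad50Δ, mre11Δ, mre11-H125N and ku70Δ, with 30 and 13 full windows in the first 2. The cause of these changes was not tested. With library 1 left out, the rad50Δ and mre11Δ libraries kept were at 0.28 and 0.57 in G1/S genes. They thus still lay above the wild-type libraries kept, at -0.61 to -0.42.

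Nothing in the labels says that a replicate number marks a shared culture or batch, and there were 2 pairs per group, so the numbers were not taken to pair the samples. Same-numbered libraries deviated together with wild type in rad50Δ (0.45 and 0.21) and mre11Δ (0.42 and 0.25), and at -0.13 to 0.03 in the other groups. With the number as a block, 127 windows were called in mre11-H125N, 84 in ku70Δ and 51 full windows were lower and 44 higher with MMS; the split over all windows was 129 higher and 69 lower in rad50Δ and 102 and 96 in mre11Δ.

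Leaving out 1 library gave 233 to 519, 676 to 1034, 33 to 290, 117 to 293, 2 to 75, 2 to 22, 291 to 585 and 548 to 863 windows in the order above, and 117 to 258, 116 to 178, 8 to 62, 12 to 40, 63 to 121 (MMS) and 130 to 190 full windows. Of the values of 41 named windows and comparisons, 9 calls were lost in at least 1 alternative and none changed direction. Depth limits low windows: 1 read is worth up to 2.43 scaled reads.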
